A study of Caenorhabditis elegans with 15 samples.

Results

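The Hedgehog-related and patched-related genes of Caenorhabditis elegans were described across 15 mRNA-sequencing libraries of whole adult worms. Members were all genes whose symbol joined wrt, grd, grl, hog, qua, ptr or ptc to a number, which gave 87 of the 46904 genes in the count tables. Of these, 61 were Hedgehog-related (10 wrt, 17 grd, 32 grl, 1 hog and 1 qua gene) and 26 were patched-related (23 ptr and 3 ptc genes). There were 5 genotypes with 3 libraries each. WT worms were N2. The fbf-2 and fbf-1 strains were mutant for FBF-2 and FBF-1 respectively, a pair of related PUF proteins that bind and repress germline mRNAs. The 3xlnc strain was mutant in the lincRNA genes linc-4, linc-29 and linc-7. fbf-1 3xlnc joined those mutations to fbf-1. The worms were grown on solid media with no treatment, and the labels give no alleles, age in hours or sex. The molecule is labelled as total RNA for WT, fbf-2 and 3xlnc but as polyA RNA for both genotypes with the fbf-1 mutation. Tests therefore compared libraries within a set, except the comparison of the effect of the linc mutations with and without the fbf-1 mutation. That test set the difference within each set against the other, so background and molecule label cannot be told apart in it. Levels given for both sets are a description. Separate cultures are not stated in the labels, so p-values cover only the spread among these libraries, and that spread may be technical.

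In most animals a Hedgehog ligand binds Patched, which then releases Smoothened, and Gli transcription factors change their activity. C. elegans has no Smoothened, but has large families of proteins related to the ligand and to Patched. The wrt (warthog), grd (groundhog), hog and qua (quahog) genes encode secreted proteins that can carry the self-cleaving Hog domain of Hedgehog, while the grl (ground-like) genes encode secreted proteins without it. Patched (ptc) and patched-related (ptr) proteins span the membrane and contain a sterol-sensing domain. Many members are known from the epidermis, glia and other cells that face the cuticle, where they act in molting and in the extracellular matrix, and ptc-1 is known for its part in germline cytokinesis.

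Total counts per library ran from 9068700 in WT replicate 1 to 38453738 in fbf-1 replicate 3. Ribosomal RNA genes took 4.62% of WT replicate 1, and 0.516% and 0.976% of WT replicates 2 and 3. The 3 linc genes had 0 counts in the 6 libraries labelled as linc mutants, and fbf-2 stood at 6.10 to 7.30 counts per 1e6 total counts (CPM) in the fbf-2 libraries against 26.0 to 32.1 CPM in WT. As a check of the labels across the differing molecule labels, fbf-1 stood at 7.80 to 8.57 CPM in the 6 libraries labelled fbf-1 and at 35.4 to 39.8 CPM in WT. Adult epidermis markers were detected in every group, with a summed level of 1842 to 3259 CPM over 7 genes. Among the fbf-1 3xlnc libraries, replicate 1 stood apart from the others for several epidermal genes, with dpy-13, a cuticle collagen gene, at 16.3 CPM against 1.90 and 1.82 CPM. Whole worms were sequenced, so fewer cells of a type and less RNA per cell cannot be told apart.

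The members lay on every chromosome, with 34 on V, 13 each on IV and X, 12 on II, 9 on I and 6 on III (WBcel235). The annotation holds 84 of them as protein-coding genes and 3 as pseudogenes, ptc-2, grd-17 and grl-32. Several sat side by side on the same strand. grd-13 (IV:3438312-3439507), grd-3 (IV:3439655-3440453) and grd-10 (IV:3441055-3441841) followed each other on the plus strand with gaps of 147 and 601 bp, and grd-14 (X:8500021-8501037) was followed by grd-4 after 184 bp. The ptc-2 pseudogene (II:6083473-6085924, minus strand) lay between the genes mutated in the fbf strains, 2629 bp from fbf-1 (II:6078263-6080843) and 2938 bp from fbf-2 (II:6088863-6091480). In the authors' deposited table, 3 of the 87 members carried the germline-enriched flag (grl-13, ptc-2 and ptr-2), as did 3059 of all 46904 genes, and 2 members carried the FBF-2-bound flag (ptc-1 and ptr-2), as did 2019 of all genes.

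Levels between genes were compared as CPM per kilobase of exon (RPKM). A few members held most of the reads. ptc-1 took 47.5% of all 537264 member counts and ptr-2 took 18.9%, while grd-3 and grd-5 together took 10.2%. By median RPKM over the 15 libraries, ptc-1 stood at 143, grd-3 at 123, grd-5 at 118.9 and ptr-2 at 101, followed by grl-4 at 41.5. grd-14 (17.9), grd-13 (17), ptr-24 (16.4), grd-10 (12.8) and ptr-21 (11.98) were the other members with a median over 10 RPKM, and 31 of the 87 had a median over 1 RPKM. At the other end 32 members, 22 of them grl genes and 7 grd genes, had 0 to 112 counts over all 15 libraries and entered no test. grl-29 had no count in any library.

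**Figure D1:**
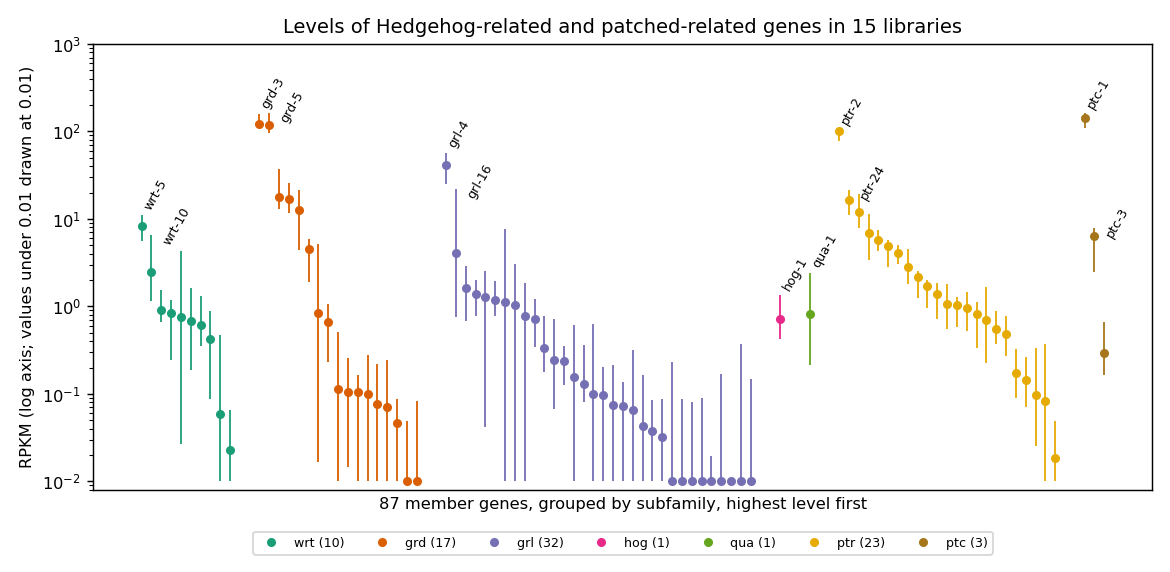
RPKM (log axis) of the 87 members in 15 libraries, grouped by subfamily and ordered by level. Each point is the median and each line runs from the lowest to the highest library, with values under 0.01 drawn at 0.01. ptc-1, grd-3, grd-5 and ptr-2 stand near or above 100 RPKM, while most grl genes lie under 1 RPKM.

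ptc-1, the Patched homologue needed for germline cytokinesis, was called in none of the comparisons. Its mean RPKM was 138 ± 25.6 in WT, 135 ± 18.4 in fbf-2, 123 ± 7.81 in 3xlnc, 144 ± 4.64 in fbf-1 and, with the linc mutations added to fbf-1, 157 ± 7.49 (SD, n = 3). Its log2 fold change was -0.16 (SE 0.194) in fbf-2 against WT, -0.21 (SE 0.161) in 3xlnc against WT and 0.13 (SE 0.0490) in fbf-1 3xlnc against fbf-1, and none passed edgeR's quasi-likelihood test (adjusted p = 0.585, 0.396 and 0.0907). ptr-2, the most abundant patched-related gene beside ptc-1, had a mean RPKM of 91.5 ± 11.9 in WT, 101 ± 6.68 in fbf-2 and 82.9 ± 5.39 in 3xlnc (SD, n = 3). It passed no test in any comparison. ptc-2 was near the bottom, with a median of 0.294 RPKM, and its log2 fold change in fbf-2 was 0.14 (SE 0.506). The opposite-strand coding gene F21H12.3 overlaps ptc-2.

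grd-3 and grd-5, groundhog genes on chromosomes IV and V, had like levels. Mean RPKM of grd-3 was 122 ± 10.2 in WT, 138 ± 17.5 in fbf-2 and 149 ± 9.28 in 3xlnc, and that of grd-5 was 123 ± 33.8, 130 ± 17.02 and 149 ± 11.2 (SD, n = 3). In WT, grd-5 was spread widely, and WT replicate 1 read 84.5 CPM against 50.9 and 57.8 CPM. wrt-5, which is needed for epidermal development, was the most abundant warthog gene and read 7.17, 4.50 and 4.72 CPM in WT, 8.02, 8.93 and 7.05 CPM in fbf-2 and 7.68, 7.49 and 8.57 CPM in 3xlnc. On this scale WT replicate 1 lay just within the fbf-2 range and the other WT libraries lay below all mutant libraries, while after TMM scaling the WT and fbf-2 libraries did not overlap. Neither comparison with WT passed (adjusted p = 0.111 and 0.0846 by edgeR's quasi-likelihood test). hog-1, the single hog gene, was low in every group, at 0.398 to 1.27 CPM.

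The fbf-2 mutant was set against WT over 49 tested members. No member rose and 8 fell (wrt-10, wrt-9, ptc-3, ptr-1, grd-14, ptr-13, grl-4 and ptr-24) by edgeR's quasi-likelihood test at an adjusted p under 0.05. Over all 13401 genes tested, 5.51% rose and 10.1% fell, so 8 of 49 (16.3%) compares with a background of 10.1%. At an unadjusted p under 0.05, 2 members lay higher and 17 lower (4.08% and 34.7% of those tested), against 14.4% and 18.8% of all genes. DESeq2 called 1 member higher. The median log2 fold change was -0.39 over tested members and -0.04 over all genes, and -0.55 over the 19 tested ptr genes, of which 16 had a negative and 3 a positive value. In TMM-scaled CPM, which can order libraries otherwise than the CPM of total counts printed here, no overlap between the fbf-2 and WT libraries was seen for 4 members lying higher and 17 lying lower (8.16% and 34.7% of those tested), against 20.2% and 18.2% of all genes. Since members were chosen by name, these medians are a description and no test was made over the list.

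The patched-related genes that fell were ptc-3, ptr-1, ptr-13 and ptr-24. ptc-3, an essential patched homologue of the epidermis and other tissues, read 19.7, 29.5 and 27.4 CPM in WT and 11.1, 13.9 and 14.5 CPM in fbf-2. The 2 ranges did not meet, and WT replicate 1 was the lowest of WT. Its log2 fold change was -1.11 (SE 0.206), a level 2.16-fold lower, with an adjusted p of 0.0104 by edgeR's quasi-likelihood test. ptr-1 read 4.52, 3.92 and 4.42 CPM in WT and 2.17, 2.78 and 2.27 CPM in fbf-2, again without overlap (log2 -0.97, SE 0.178, adjusted p = 0.0101), although the opposite-strand coding gene spas-1 overlaps it and the strand setting of the counting was not stated in what was used here. ptr-24, which acts with grl-21 in fat storage, read 44.3, 56.6 and 55.5 CPM in WT and 33.2, 36.5 and 35.5 CPM in fbf-2 (log2 -0.71, SE 0.145, adjusted p = 0.0143). ptr-13 read 21.3, 23.4 and 26.1 CPM in WT and 11.5, 15.3 and 16.2 CPM in fbf-2 (log2 -0.86, SE 0.177, adjusted p = 0.0155).

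Among the secreted proteins, wrt-10 fell most. It read 7.39, 4.60 and 4.42 CPM in WT and 2.80, 1.91 and 2.46 CPM in fbf-2 (log2 -1.27, SE 0.232, adjusted p = 0.00976). The WT libraries were all above the fbf-2 libraries, and the call held in all 12 alternatives tried. wrt-9 fell as well (log2 -1.21, SE 0.297) on a mean of 26.3 counts, from 1.56 to 2.27 CPM in WT to 0.752 to 1.21 CPM in fbf-2. grd-14 read 16.7, 12.4 and 10.2 CPM in WT and 7.68, 7.79 and 7.79 CPM in fbf-2 (log2 -0.86, SE 0.165, adjusted p = 0.0118), while its tandem neighbour grd-4 was not called. grl-4, the most abundant ground-like gene, read 27.1, 47.0 and 35.9 CPM in WT and 22.5, 25.3 and 20.4 CPM in fbf-2 (log2 -0.85, SE 0.214, adjusted p = 0.0311). The other 23 of 27 tested Hedgehog-related genes and 18 of 22 tested patched-related genes were not called. Of the 6 fits that each left out a library, the grl-4 call was lost in 5, those of ptr-24 and wrt-9 in 4, that of ptr-13 in 3, that of grd-14 in 2, and those of ptc-3 and ptr-1 in 1.

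**Figure D2:**
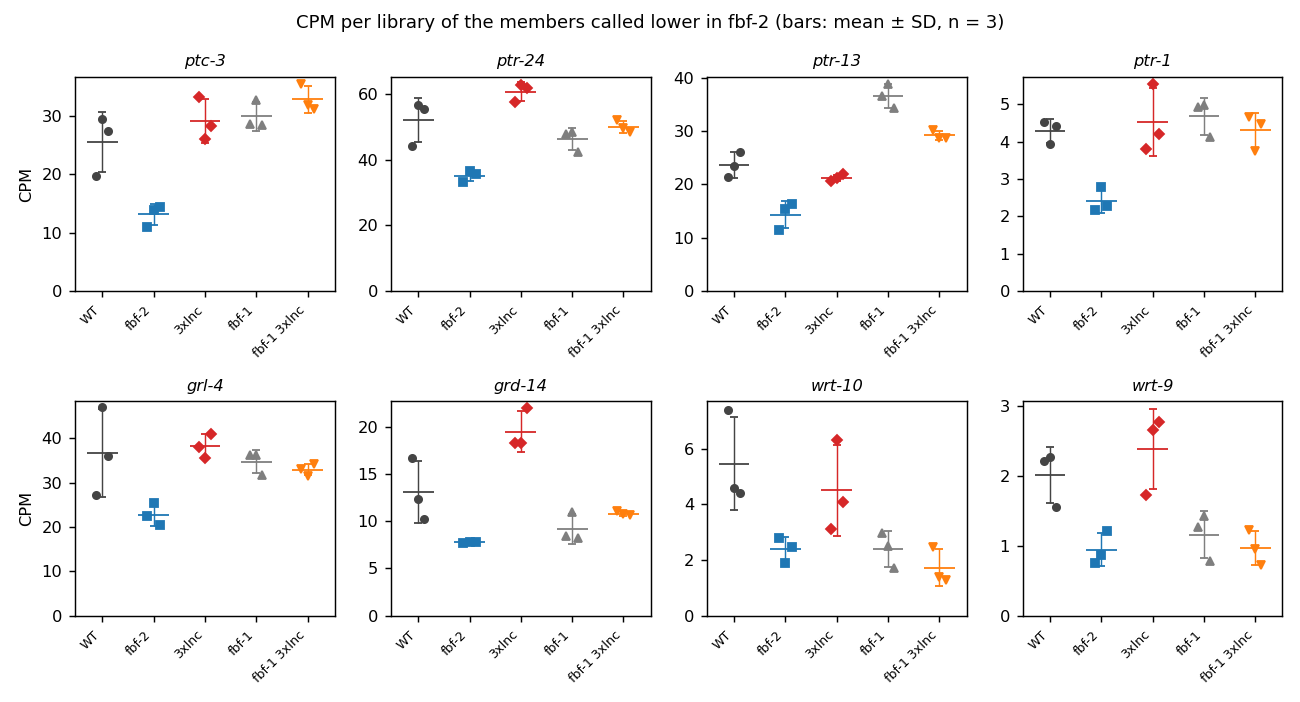
CPM per library of the 8 members called lower in fbf-2, with mean ± SD (n = 3) as a line and bar. In every panel the fbf-2 squares lie below the WT circles, for example ptc-3 at 11.1 to 14.5 CPM against 19.7 to 29.5 CPM.

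WT and fbf-2 libraries of the same number deviated together, and with the replicate number as a block 1 member was called higher and 14 lower. The fbf-2 values and calls given here come from the fit without that block, and none of the calls was lost with it. The count of members that fell was 15 without WT replicate 1, 5 without WT replicate 2, 2 without WT replicate 3, and 3 without either fbf-2 replicate 1 or fbf-2 replicate 2. Shares of all genes called were not taken for the block or for these fits, so the counts have no background beside them. Epidermal and molting genes moved beside these members. Of 30 molting regulators and apical matrix genes 1 rose and 10 fell, among them noah-1 (log2 -1.64, SE 0.151) and noah-2 (log2 -1.32, SE 0.120), which encode matrix proteins of the embryo and molting larva, and sym-1 (log2 -1.35, SE 0.149). That list summed to 818 to 965 CPM in WT and 794 to 900 CPM in fbf-2. egg-6 alone took 386 to 496 CPM of it in WT and 462 to 523 CPM in fbf-2. Of 15 larval and late embryo epidermis markers 0 rose and 6 fell, with a summed level of 200 to 246 CPM in WT and 184 to 215 CPM in fbf-2. None of these markers was at 0. Markers of other tissues moved too, with 6 of 10 tested sperm and 5 of 8 intestine markers lower and 0 higher, and the sperm list summed to 70.8 to 110 CPM in WT and 29.7 to 44.5 CPM in fbf-2. msp-36 alone took 17.5 to 22.4 CPM of the sperm sum in WT and 0 to 0.0464 CPM in fbf-2. Of 7 tested glia and excretory duct or pore markers 0 were higher and 2 lower, and of 7 muscle markers 0 were higher and 1 was lower. Among 11 germline markers 1 was higher and 2 lower, and no neuron marker was called. The germline list holds the mutated gene fbf-2 and its relative fbf-1, so its counts do not describe germline tissue alone. fbf-2 stood at 26.0 to 32.1 CPM in WT and 6.10 to 7.30 CPM in the fbf-2 libraries, and fbf-1 at 35.4 to 39.8 and 70.5 to 72.0 CPM. The part of these markers in the result was not tested.

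The linc mutations were compared with WT over 52 tested members. Here 6 members rose (grl-7, wrt-4, grl-16, grl-21, qua-1 and ptr-18) and 0 fell by edgeR's quasi-likelihood test, against backgrounds of 9.41% and 2.11% over 13861 genes, so that 6 of 52 (11.5%) was near the background. At an unadjusted p under 0.05, 22 members lay higher and 0 lower (42.3% and 0% of those tested), against 18.7% and 11.4% of all genes. DESeq2 called 0 lower. The median log2 fold change was 0.26 over tested members and -0.02 over all genes. In TMM-scaled CPM the 3xlnc and WT libraries did not overlap for 22 members lying higher and 2 lying lower (42.3% and 3.85% of those tested), against 21.8% and 14.8% of all genes. All 9 tested grd genes had positive values, from 0.25 to 2.04, and none was called. The fbf-2 and 3xlnc comparisons share the WT libraries.

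grl-16, a ground-like gene, moved most clearly in 3xlnc. It read 7.61, 7.70 and 3.21 CPM in WT and 33.9, 27.5 and 36.8 CPM in 3xlnc, while fbf-2 stood at 2.17 to 6.75 CPM. All 3xlnc libraries were far above every WT library. The log2 fold change was 2.39 (SE 0.288), 5.23-fold, with an adjusted p of 0.00205 by edgeR's quasi-likelihood test, and the call held in all 12 alternatives. wrt-4, a warthog gene, read 1.98, 1.89 and 0.0502 CPM in WT and 7.91, 8.16 and 5.45 CPM in 3xlnc (log2 2.51, SE 0.579, adjusted p = 0.0245). WT replicate 3 was far below the other WT libraries for this gene, and the call was lost without any one 3xlnc library, and with DESeq2.

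qua-1, a Hedgehog-related gene needed for molting, read 1.43, 3.15 and 1.00 CPM in WT and 6.06, 6.02 and 4.05 CPM in 3xlnc (log2 1.41, SE 0.383, adjusted p = 0.0437). grl-21 read 1.76, 1.45 and 0.904 CPM in WT and 3.93, 2.14 and 5.14 CPM in 3xlnc (log2 1.45, SE 0.372, adjusted p = 0.0359). Neither gene's ranges overlapped. ptr-18, which in larvae helps to clear GRL-7 from the apical matrix, read 3.09, 1.84 and 1.76 CPM in WT and 4.39, 4.36 and 3.27 CPM in 3xlnc (log2 0.87, SE 0.247, adjusted p = 0.0499), close to the threshold, and the call was lost in 7 of 12 alternatives. grl-7 itself read 1.21, 0.0968 and 0.0502 CPM in WT and 2.94, 2.22 and 3.04 CPM in 3xlnc (log2 3.10, SE 0.660, adjusted p = 0.0181) on a mean of 33.2 counts, and WT replicate 1 alone read over 1 CPM in WT. Among the alternatives, the qua-1 call was lost in 5 of 12, the grl-21 call in 4 of 12, the replicate block among them, and the grl-7 call in 4 of 11, DESeq2 among them.

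The count of members that rose was 18 without WT replicate 1 (with 3 that fell), 2 without WT replicate 3, and 1 without either 3xlnc replicate 1 or 3xlnc replicate 3. Shares of all genes called were not taken for these fits. Of the markers, the cuticle collagens dpy-13 (log2 2.28, SE 0.504) and sqt-1 (log2 2.75, SE 0.612) rose and were the called genes among 15 larval and late embryo epidermis markers. That list summed to 200 to 246 CPM in WT and 241 to 288 CPM in 3xlnc. lin-26 alone took 93.0 to 114 CPM of it in WT and 79.9 to 92.2 CPM in 3xlnc. Of 7 adult epidermis markers 3 rose, among them col-7 (log2 2.30, SE 0.292), and the list summed to 2102 to 2751 CPM in WT and 3083 to 3259 CPM in 3xlnc. col-19 alone took 1646 to 2052 CPM of that sum in WT and 2295 to 2426 CPM in 3xlnc. No marker of either list was at 0. Among 29 tested molting regulators and apical matrix genes 1 rose and 0 fell, with a median log2 fold change of -0.10. Of other tissues, 7 of 10 tested sperm, 4 of 8 intestine and 3 of 7 muscle markers rose and 0 fell, and the sperm list summed to 131 to 188 CPM in 3xlnc. Of 6 tested glia and excretory duct or pore markers 2 rose and 1 fell. No germline or neuron marker was called. The part of these markers in the result was not tested. Of 12 further sterol-sensing and Hedgehog-pathway genes, ncr-1 (log2 0.72, SE 0.149) and ncr-2 (log2 0.97, SE 0.239), homologues of the Niemann-Pick type C cholesterol transporter, rose and 0 fell.

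**Figure D3:**
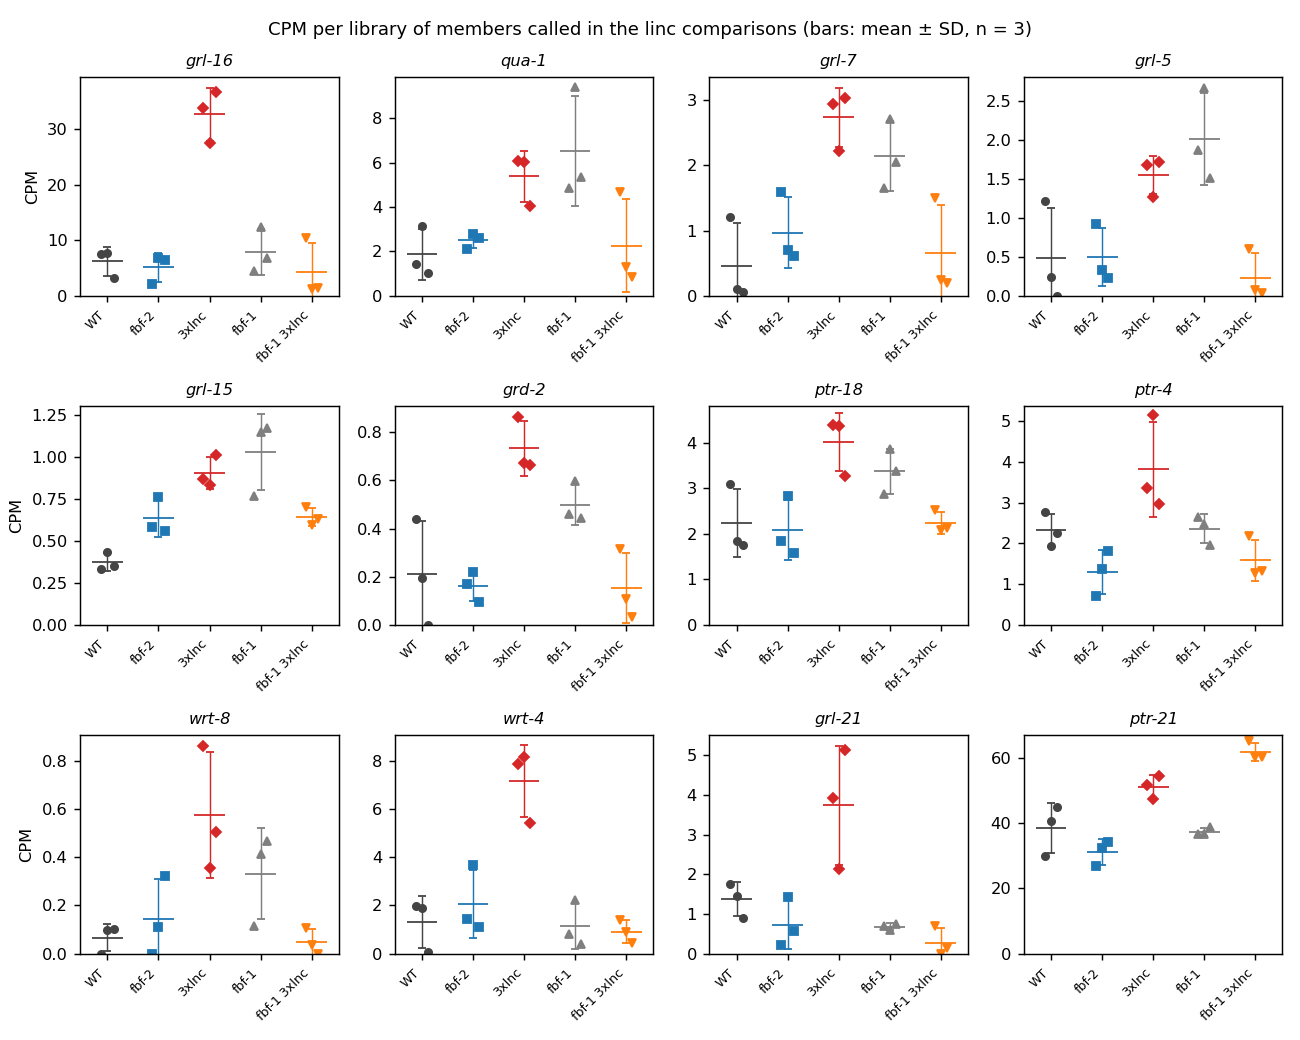
CPM per library of 12 members called in the linc comparisons or in their difference, with mean ± SD (n = 3) and bars cut at 0. grl-16 lies at 27.5 to 36.8 CPM in 3xlnc and 3.21 to 7.70 CPM in WT, and ptr-21 at 60.3 to 65.2 CPM in fbf-1 3xlnc and 36.6 to 38.7 CPM in fbf-1.

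In the fbf-1 background, fbf-1 3xlnc was compared with fbf-1 over 53 tested members. A single member rose, ptr-21 (1.89% of those tested), and 4 fell, grl-5, grl-22, ptr-18 and ptr-13 (7.55%). Over all 14104 genes tested 9.43% were higher and 8.49% lower, so neither member share was above the background. The median log2 fold change was -0.10 over members and 0.00 over all genes. ptr-21, a patched-related gene, read 36.6, 36.8 and 38.7 CPM in fbf-1 and 65.2, 60.3 and 60.4 CPM in fbf-1 3xlnc (log2 0.74, SE 0.0521, adjusted p = 3.99e-05 by edgeR's quasi-likelihood test). The libraries of each group lay close together and the call held in all 11 alternatives. In 3xlnc against WT the same gene had a log2 fold change of 0.36 (SE 0.157) and was not called.

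grl-5, a ground-like gene, read 1.87, 2.67 and 1.51 CPM in fbf-1 and 0.595, 0.0702 and 0.0332 CPM in fbf-1 3xlnc (log2 -3.07, SE 0.649, adjusted p = 0.0137) on a mean of 30.8 counts. grl-22, overlapped by the opposite-strand gene W03A5.1, read 1.72, 1.43 and 1.72 CPM in fbf-1 and 0.665, 0.632 and 0.763 CPM in fbf-1 3xlnc (log2 -1.23, SE 0.224, adjusted p = 0.00731). Both genes separated the groups, and among 10 alternatives the grl-5 call was lost in 2 and the grl-22 call in 0. ptr-13 fell by 0.31 on the log2 scale (SE 0.0488, adjusted p = 0.00378), from 36.5, 38.7 and 34.2 CPM to 30.2, 28.6 and 28.6 CPM. ptr-18 fell by 0.58 (SE 0.166, adjusted p = 0.0433), from 2.87, 3.87 and 3.38 CPM to 2.52, 2.07 and 2.12 CPM, but that call was lost in 7 of 11 alternatives.

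The library fbf-1 3xlnc replicate 1 stood apart here. grl-16 read 10.4 CPM in it against 1.26 and 1.39 CPM in the other fbf-1 3xlnc libraries, and qua-1 read 4.65 CPM against 1.30 and 0.829 CPM. Without it, 3 members rose and 16 fell. Without fbf-1 replicate 1, 2 fell, and without fbf-1 replicate 2, 2 rose and 2 fell. Shares of all genes called were not taken for these fits. The larval epidermis list summed to 203 to 248 CPM in fbf-1 and 150 to 199 CPM in fbf-1 3xlnc, with 0 of its 15 markers higher and 2 lower, and no marker at 0. lin-26 alone took 90.2 to 104 CPM of it in fbf-1 and 88.9 to 93.1 CPM in fbf-1 3xlnc. Among 7 adult epidermis markers 1 was higher and 0 lower. The molting and apical matrix list had 3 of 29 tested genes higher and 3 lower. The sperm list summed to 35.5 to 58.9 CPM in fbf-1 and 79.7 to 185 CPM in fbf-1 3xlnc, with 8 of 11 markers higher. Of other tissues, 4 of 8 intestine and 2 of 7 muscle markers were higher and 0 lower. Of 7 tested glia and excretory duct or pore markers 1 was higher and 2 were lower. The part of these markers in the result was not tested.

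**Figure D4:**
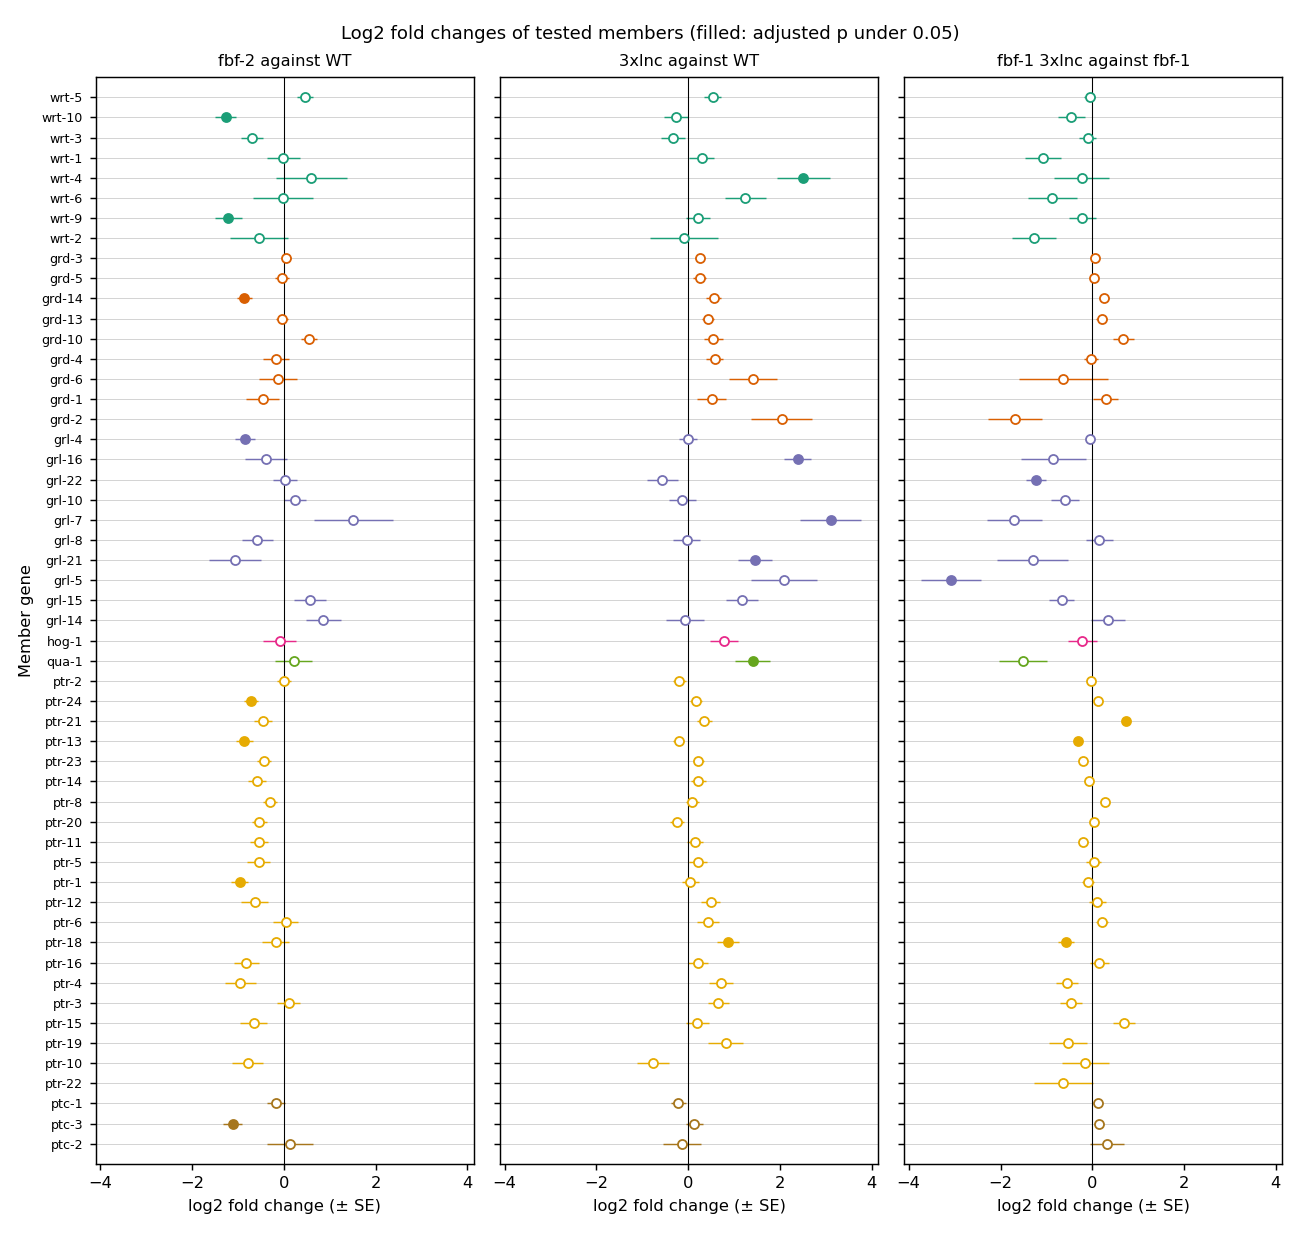
Log2 fold changes (± SE) of tested members in the 3 comparisons of mutants with their controls, with filled points at an adjusted p under 0.05 by edgeR's quasi-likelihood test. Filled points lie to the left in fbf-2 against WT, to the right in 3xlnc against WT, and on both sides in fbf-1 3xlnc against fbf-1.

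The linc effect was then compared between the backgrounds, as the fold change in the fbf-1 background minus that in the WT background, over 55 tested members. It was lower in the fbf-1 background for 9 members (wrt-8, grl-5, grl-7, grd-2, grl-16, qua-1, grl-15, ptr-18 and ptr-4) and higher for 0, against backgrounds of 3.66% and 2.54% over 14772 genes. At an unadjusted p under 0.05, 1 member was higher and 19 were lower (1.82% and 34.5% of those tested), against 10.5% and 10% of all genes. DESeq2 called 0 higher. 7 of the 9 were Hedgehog-related genes, as were 31 of the 55 tested members. The median difference was -0.30 over members and 0.04 over all genes. The libraries of the fbf-1 background also carried the other molecule label, so background and label cannot be told apart in these differences.

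For ptr-18 the difference was -1.44 (SE 0.289, adjusted p = 0.00950 by edgeR's quasi-likelihood test), from a log2 fold change of 0.87 in the WT background and -0.58 in the fbf-1 background. It was kept in all 17 alternatives. For grl-16 the effects were 2.39 and -0.85 (difference -3.24, SE 0.843, adjusted p = 0.0357), and for qua-1 1.41 and -1.51 (difference -2.92, SE 0.732, adjusted p = 0.0299). Both of these were lost in 8 of the 12 fits that left out a library. ptr-4, a patched-related protein of the apical matrix that is needed for molting, had effects of 0.72 and -0.55 (difference -1.25, SE 0.352, adjusted p = 0.0499), at the threshold, and was lost in 11 of 17 alternatives.

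Among low-count members, grl-7 had effects of 3.10 and -1.70, with a difference of -4.80 (SE 1.00), and grl-5 of 2.10 and -3.07, with a difference of -5.15 (SE 1.06). Both were called in all 16 alternatives that could be fitted. wrt-8 had 84 counts in all, at 0 to 0.1004 CPM in WT, 0.357 to 0.866 CPM in 3xlnc, 0.115 to 0.468 CPM in fbf-1 and 0 to 0.105 CPM in fbf-1 3xlnc (difference -5.42, SE 1.15). grd-2 (difference -3.70, SE 0.952) and grl-15 (difference -1.84, SE 0.421) made up the rest, and of the 12 fits that left out a library the call was lost in 9 for grd-2 and in 2 for grl-15. grl-15 is overlapped by the opposite-strand gene Y75B8A.19.

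The count of members with a lower effect was 14 without WT replicate 1 (with 3 higher), 4 without WT replicate 3, and 5 without any one of 3xlnc replicates 1 and 2, fbf-1 replicates 2 and 3 and fbf-1 3xlnc replicate 2. Shares of all genes called were not taken for these fits. Larval cuticle collagens moved beside these members. Of 15 larval epidermis markers 0 had a higher and 4 a lower effect in the fbf-1 background, among them dpy-13 (difference -4.16, SE 0.961), sqt-1 (difference -4.66, SE 1.07) and sqt-3 (difference -1.43, SE 0.297). Among 29 tested molting regulators and apical matrix genes 1 had a higher and 2 a lower effect, with a median difference of 0.04. Of 7 adult epidermis markers 0 had a higher and 1 a lower effect, with a median difference of -1.47 against -0.44 over the larval list. The effect was lower for 2 of 7 tested glia and excretory duct or pore markers and 1 of 7 muscle markers, and higher for 2 of 8 intestine markers. No sperm, germline or neuron marker was called. dpy-13 read 9.48, 12.97 and 1.66 CPM in WT, 43.5, 35.9 and 40.7 CPM in 3xlnc, 18.2, 33.4 and 22.6 CPM in fbf-1 and 16.3, 1.90 and 1.82 CPM in fbf-1 3xlnc. WT replicate 3 and fbf-1 3xlnc replicates 2 and 3 were the low libraries for dpy-13, sqt-1 and rol-6. The part of these genes in the result was not tested.

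**Figure D5:**
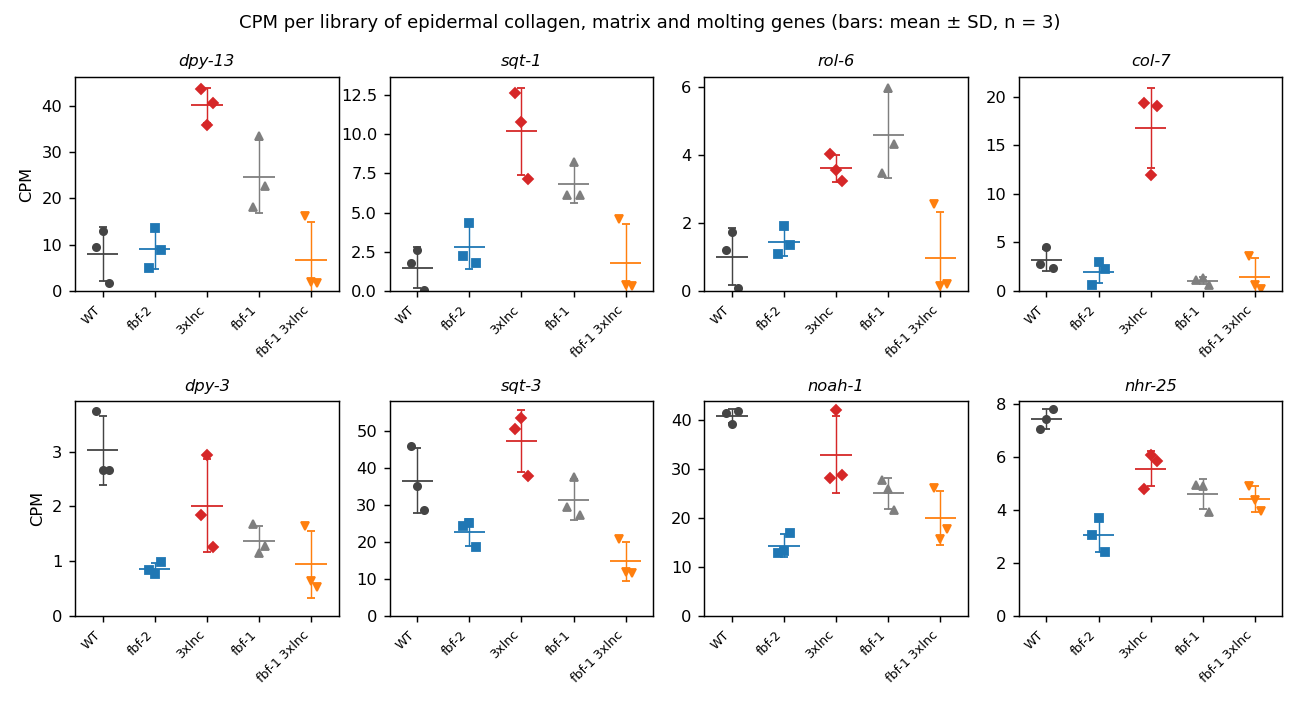
CPM per library of 8 epidermal collagen, matrix and molting genes, with mean ± SD (n = 3) and bars cut at 0. dpy-13 lies at 35.9 to 43.5 CPM in 3xlnc, above the WT libraries, and noah-1 is lower in every fbf-2 library than in any WT library.

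The 3xlnc and fbf-2 strains were also compared directly, with no use of WT. Of 52 tested members 35 were higher in 3xlnc and 1 was lower, against backgrounds of 34.2% higher and 26.6% lower over 14045 genes. The higher members were 17 of 22 tested patched-related genes, 16 of them ptr genes out of 19 tested, and 18 of 30 tested Hedgehog-related genes. The median log2 difference was 0.80 over members and 0.10 over all genes. Epidermal markers moved the same way, with 12 of 15 larval and 7 of 7 adult epidermis markers higher in 3xlnc. So did sperm, muscle and intestine markers, with 10 of 10 tested sperm, 7 of 7 muscle and 7 of 8 intestine markers higher and 0 lower. Of 8 tested glia and excretory duct or pore markers 5 were higher and 0 lower. Germline markers did not, with 2 of 11 higher and 3 lower, and of 6 neuron markers 3 were higher and 2 lower. The germline list holds the genes fbf-2 and fbf-1, so its counts do not describe germline tissue alone. fbf-2 stood at 30.8 to 34.2 CPM in the 3xlnc libraries and 6.10 to 7.30 CPM in the fbf-2 libraries, and fbf-1 at 37.4 to 40.5 and 70.5 to 72.0 CPM. The part of these markers in the result was not tested.

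Among members with a mean of at least 50 counts, the largest differences were in grl-16 (log2 2.80, SE 0.283) and wrt-4 (log2 1.93, SE 0.327). ptr-4 read 0.710, 1.36 and 1.81 CPM in fbf-2 and 3.35, 5.15 and 2.96 CPM in 3xlnc (log2 1.68, SE 0.316, adjusted p = 0.000644 by edgeR's quasi-likelihood test), with WT at 1.94 to 2.76 CPM between them. grd-6 read 1.42, 3.59 and 2.13 CPM in fbf-2 and 6.64, 2.22 and 10.4 CPM in 3xlnc (log2 1.56, SE 0.459, adjusted p = 0.0106), its ranges overlapped, and the call was lost in 2 of 12 alternatives. grd-14 read 18.2, 18.3 and 22.0 CPM in 3xlnc against 7.68 to 7.79 CPM in fbf-2 (log2 1.43, SE 0.114, adjusted p = 1.6e-06), and ptc-3 read 33.3, 26.0 and 28.2 CPM against 11.1 to 14.5 CPM (log2 1.25, SE 0.140, adjusted p = 1.81e-05).

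ptr-12 (log2 1.14, SE 0.223), ptr-18 (log2 1.06, SE 0.230) and ptr-1 (log2 1.03, SE 0.191) were also higher in 3xlnc, as was qua-1 (log2 1.21, SE 0.209). hog-1 was higher by 0.89 (SE 0.309, adjusted p = 0.0253 by edgeR's quasi-likelihood test), at 0.924 to 1.27 CPM in 3xlnc and 0.510 to 0.926 CPM in fbf-2. The opposite-strand coding gene atat-2 overlaps hog-1, and the hog-1 call held in 6 of 11 alternatives. The lower member was grl-14 (log2 -0.92, SE 0.321), at 0.462 to 0.584 CPM in 3xlnc and 0.763 to 1.17 CPM in fbf-2, which the opposite-strand gene sbt-1 overlaps, and its call held in 5 of 11 alternatives. ptc-1 (log2 -0.04, SE 0.106) and ptr-2 (log2 -0.19, SE 0.0796) were not called.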

How the data were processed

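Raw counts per gene, whole numbers deposited by the authors in tables over 46904 genes, were used. Per the submitters' processing notes the authors used STAR 2.7.9a, featureCounts of Subread 2.0.1, DESeq2 1.34.0 and the build WBcel235. Strand setting and treatment of multiply mapped reads: not given in the sources used here. An opposite-strand coding gene overlaps 24 of the 87 members. 18 columns of normalised values were not used. The fbf-1 3xlnc columns match the group but no single sample. Positions and exon lengths came from annotation release 115 (46817 genes found).

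edgeR 4.0.16 in R 4.3.3 (filterByExpr, TMM, quasi-likelihood F test) was fitted over all genes of the libraries compared, with Benjamini-Hochberg adjustment over all genes tested and a threshold of 0.05. CPM used total counts, and RPKM also the union exon length. The procedure was tested on simulated data. Members and lists were chosen with earlier results of these data known. Named genes are called members with a mean of 50 counts (the 10 largest each way), all called in the difference between backgrounds, the 2 highest by RPKM in each large subfamily, every hog, qua and ptc gene, and the 3 genes of other lists with the smallest adjusted p. wrt-9, grl-14, grl-22, rol-6, grd-4, grd-10 and grd-13 were named after their values were seen. Same-numbered fbf-2 and WT libraries deviated together (correlations 0.587, 0.375 and 0.396 across genes with a mean of 50 counts), which met the pairing rule of 0.1. The fbf-2 results given nevertheless come from the fit without a replicate block, and the block was run as an alternative. Alternative fits used upper-quartile or RLE scaling, no filter or a mean of 50 counts, DESeq2 1.42.0, a replicate block, and each library left out in turn.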

Additional observations from a re-analysis of the deposited data

Results flagged for a closer look

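9 members had a linc effect that differed between the fbf-1 and the WT backgrounds by edgeR's quasi-likelihood test of the difference. The molecule label differed along with the background, so background and label cannot be told apart. On the log2 scale, as fbf-1 background minus WT background, the differences were -5.42 for wrt-8, -5.15 for grl-5, -4.80 for grl-7, -3.70 for grd-2, -3.24 for grl-16, -2.92 for qua-1, -1.84 for grl-15, -1.44 for ptr-18 and -1.25 for ptr-4. wrt-8, grl-5, grl-7, grd-2 and grl-15 had means under 50 counts.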

How the results depend on the processing

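Of 787 checks of single member calls under the alternatives, 653 stayed past the threshold in the same direction, 134 were no longer past it and 0 reversed. In fbf-2 against WT, 1 member instead of 0 was higher with no filter on low counts and 1 with DESeq2, and the replicate block gave 1 higher and 14 lower. In 3xlnc against WT, 12 members were higher with upper-quartile scaling, 14 with no filter and 3 with a mean of 50 counts required. In fbf-1 3xlnc against fbf-1, 3 were higher with upper-quartile scaling, 2 with no filter, 2 with a mean of 50 counts and 3 with DESeq2, while 10 were lower with no filter and 2 with a mean of 50 counts. In 3xlnc against fbf-2, 2 were lower with RLE scaling, 0 with upper-quartile scaling, 2 with no filter and 0 with a mean of 50 counts. The difference between backgrounds was lower for 4 with a mean of 50 counts. The mean of 50 counts tests fewer genes by construction, and for the other alternatives the cause was not tested. Shares of all genes called were taken for the main fits only.

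Leaving out 1 library gave 0 to 3 higher and 2 to 15 lower members in fbf-2 against WT, 1 to 18 higher and 0 to 3 lower in 3xlnc against WT, 1 to 3 higher and 2 to 16 lower in fbf-1 3xlnc against fbf-1, 30 to 33 higher and 0 to 1 lower in 3xlnc against fbf-2, and 0 to 3 higher and 4 to 14 lower for the difference between backgrounds. No share of all genes called was taken for these fits. With the replicate block 5 members were higher in 3xlnc against WT. There, as in 3xlnc against fbf-2, same-numbered libraries did not deviate together (correlations -0.158 to 0.191 and -0.269 to -0.0799) and not every library correlated best with its own number. No paired analysis was possible for fbf-1 3xlnc against fbf-1 and for the difference between backgrounds because the numbers on the fbf-1 3xlnc columns could not be tied to single samples. Depth limits the members with low counts, 32 of which could not be tested.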
